A study of Homo sapiens with 12 samples.

Results

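Amino acid transporters carry amino acids across the plasma membrane and the membranes of lysosomes and endosomes. The set described here holds 31 genes, chosen by symbol from the SLC1, SLC3, SLC6, SLC7, SLC36, SLC38 and SLC43 families. These genes, and the gene lists used below, were chosen with earlier results of these data known. Their counts and shares beside those of all genes are therefore description and no independent test. All 31 were found among the 60617 genes counted, and 28 had enough counts to be tested. They were followed in NCI-H295R, an established human adrenocortical carcinoma line that makes steroid hormones, by sequencing of polyadenylated RNA from 12 libraries.

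The 12 libraries form 4 groups of 3 biological replicates of this 1 line. Baseline cells were kept for 96 h in DMSO, which is the vehicle of the drugs. The EZH2i group had 62 µM EPZ-6438 for 96 h, a compound that blocks the histone H3 lysine methyltransferase EZH2. The CBPi group had 26 µM PRI-724 for 96 h, a compound that disrupts the contact of the coactivator CBP with β-catenin, and the labels name the doses of both inhibitors as IC-50 doses. The FSK group had vehicle for 48 h and then 10 µM forskolin for 48 h, an activator of adenylyl cyclase that raises cAMP, the second messenger of the hormone ACTH. Time with the drug therefore differed between FSK and both inhibitors. The labels do not say whether replicates were grown on separate days, so p-values measure the spread between these cultures.

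These transporters work in groups. SLC3A2 is a single-pass heavy chain that brings SLC7 light chains to the cell surface, where SLC7A5 and SLC7A8 exchange large neutral amino acids, SLC7A6 and SLC7A7 exchange cationic for neutral ones, and SLC7A11 brings in cystine in exchange for glutamate. SLC38A1 and SLC38A2 load cells with glutamine and other small neutral amino acids using the sodium gradient, and exchangers such as SLC1A5 and SLC7A5 trade these against others. Shortage of amino acids activates the kinase GCN2 (gene EIF2AK4), which slows translation in general while favouring that of the transcription factor ATF4, and ATF4 raises many transporter and amino acid synthesis genes.

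Library totals ran from 20.6 to 31.5 megacounts. In the CBPi group, replicate 2 stood apart from its partners, with chi-square values per degree of freedom of 13.2 and 12.1 against counting noise, where the other 10 pairs within groups gave 2.56 to 6.68. It was the lowest of its 3 libraries for 17 of the 28 tested transporters. That count does not set it apart, because FSK replicate 1 was also the lowest of its 3 for 17. The 10 adrenocortical markers, which include NR5A1 and CYP17A1, were all detected at baseline, while the chromaffin genes TH, DBH, PNMT and SLC18A1 had no count in any baseline library, and CHGA and CHGB were detected. These 6 chromaffin markers summed to 50.4 to 53.4 CPM at baseline, 58.4 to 65.7 (EZH2i), 97.8 to 101 (CBPi) and 23.3 to 25.0 (FSK), where CPM are counts scaled to a common library total, and the 8 fibroblast markers to 39.2 to 41.5, 42.3 to 49.0, 15.04 to 18.9 and 17.5 to 19.1. CHGB made up most of the chromaffin sum, at 46.9 to 49.1 CPM at baseline. The fibroblast sums hide opposite moves among the 6 markers tested. With EZH2i THY1 rose, from 4.83 to 5.89 CPM at baseline to 14.8 to 18.5, and 3 fell. With CBPi 0 rose and 5 fell. With FSK LUM and DCN rose, to 4.1 to 5.5 and 1.43 to 1.81 CPM, and 4 fell. Endothelial and immune markers summed to at most 4.20 and 3.15 CPM in any library. The summed adrenocortical markers moved with treatment. They went from 4190 to 4381 CPM at baseline to 1970 to 2018 (EZH2i), 1679 to 1875 (CBPi) and 9565 to 9767 (FSK). SCARB1 was the largest of them in every group, at means of 1840, 1213, 1041 and 5150 CPM from baseline to FSK. Of the 10, 1 rose and 9 fell with EZH2i, 0 and 9 with CBPi, and 9 and 1 with FSK. NR0B1 went the other way with EZH2i and FSK, from a mean of 10.32 CPM at baseline to 20.35 and 3.037. The part of these markers and of replicate 2 in the transporter results was not tested beyond the values without that library, and in bulk RNA fewer cells of a type and less RNA per cell cannot be told apart.

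Most of the tested transporters shifted with EZH2i, more of them up than down. By the quasi-likelihood test of edgeR, adjusted over 20360 genes after Benjamini and Hochberg (here edgeR adjusted p, threshold 0.05), 17 of 28 rose and 4 fell against baseline, and 7 did not pass. Of all genes tested, 29.5% rose and 28.3% fell in this comparison. The median log2 fold change of the 28 transporters was 0.27, beside 0.02 for all genes. A stricter test against a fold of 1.5 called 11 transporters higher and 0 lower, where 6.62% and 4.79% of all genes were called. The 4 that fell, by the plain test, were SLC1A2, SLC6A9, SLC7A7 and SLC38A9.

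With CBPi, 15 of the 28 rose, 7 fell and 6 did not pass, beside 29.8% of all genes higher and 29.0% lower. The median was 0.36, against 0.015 for all genes. The test against 1.5-fold called 11 higher and 3 lower (SLC1A2, SLC1A3 and SLC7A7), with 6.09% and 6.14% of all genes called. Without CBPi replicate 2, 15 rose and 6 fell, and 10 were higher and 3 lower by more than 1.5-fold.

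With FSK, 13 rose, 6 fell and 9 did not pass, and 25.5% of all genes were higher and 25.1% lower. The median was 0.09, beside 0.015 for all genes. Against 1.5-fold, 6 were called higher and 2 lower (SLC7A8 and SLC38A4), where 5.34% and 6.45% of all genes were called. The SLC38A4 call rested on 7 summed FSK counts. In the test against 1.5-fold its edgeR adjusted p was 0.0198, beside 8.5e-15 for SLC7A8. The 3 comparisons share the same baseline libraries, so their calls are not independent of each other. Side by side, SLC1A4, SLC1A5, SLC3A2, SLC7A1, SLC7A5, SLC7A11, SLC38A1, SLC38A2, SLC38A7, SLC43A1 and SLC43A2 were called higher in each. The SLC38A7 call with FSK (0.17, edgeR adjusted p = 0.0194) was lost with scaling by library size only (edgeR adjusted p = 0.153) and without baseline replicate 3, FSK replicate 2 or FSK replicate 3 (edgeR adjusted p = 0.0858, 0.0637 and 0.0909). SLC1A2 and SLC7A7 were lower in each, SLC7A8 rose with both inhibitors and fell with FSK, and SLC6A9 fell with EZH2i and rose with CBPi and FSK.

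**Figure D1:**
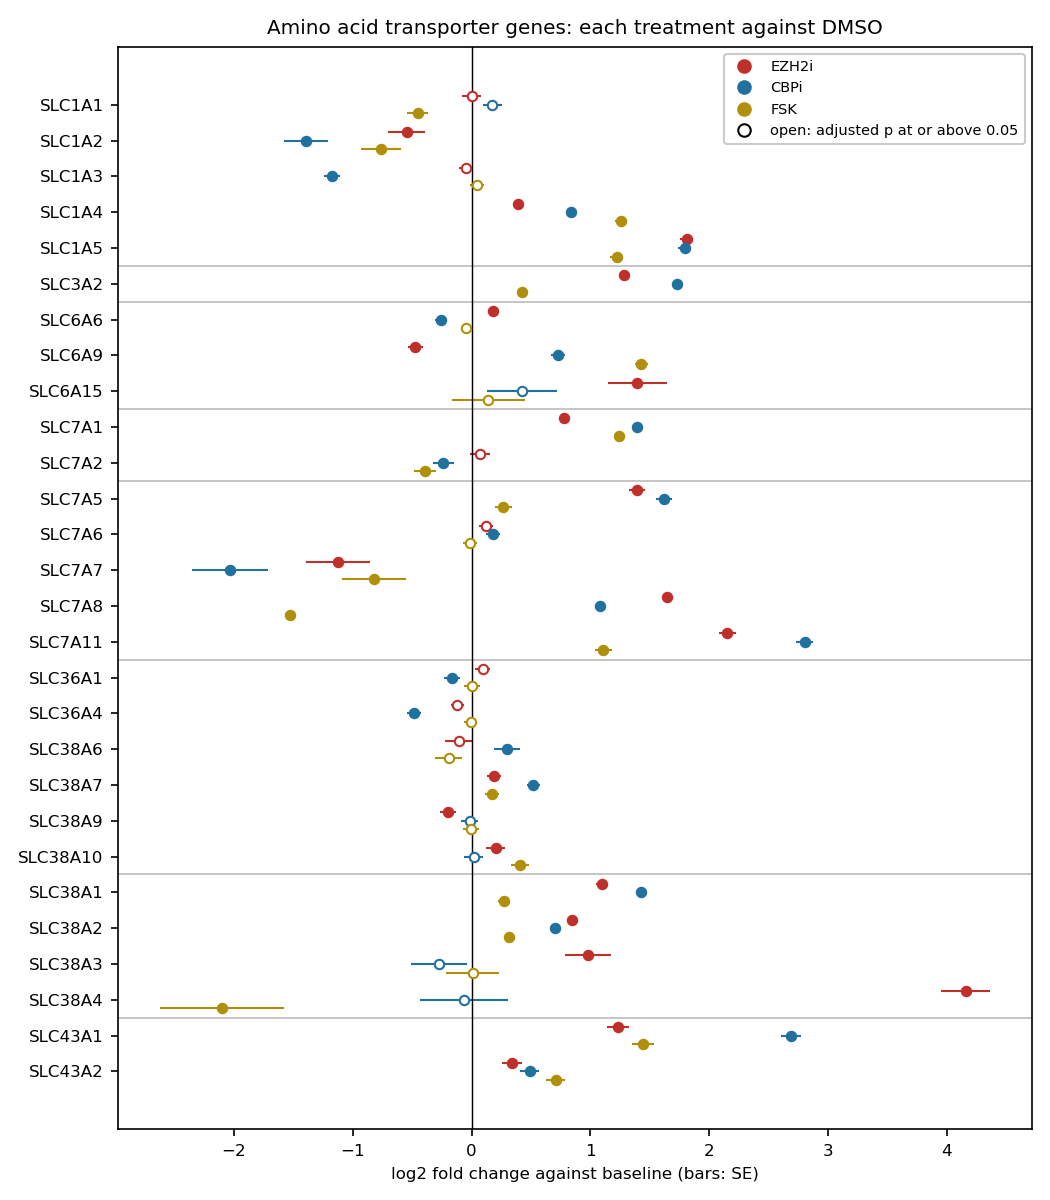
Log2 fold change of each of the 28 tested transporters (x axis) against baseline, with EZH2i in red, CBPi in blue and FSK in yellow, bars for the SE of the fit and open circles where edgeR adjusted p was at or above 0.05. SLC38A4 lies far to the right with EZH2i at 4.16, SLC7A8 lies right of 0 with both inhibitors and left of it with FSK, and the block from SLC36A1 to SLC38A10 stays between -0.48 and 0.52.

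Summed over the 31 genes per kilobase of gene length, which lets genes be compared, transporter mRNA stood at 316 ± 3.5 CPM per kilobase at baseline, 686 ± 8.9 with EZH2i, 711 ± 23 with CBPi and 390 ± 5.8 under FSK (SD, n = 3 each). The EZH2i and CBPi libraries all lay above the FSK libraries, and those above the baseline libraries. At baseline SLC7A8 led on this scale, at 65.6 ± 1.4 CPM per kilobase (SD, n = 3), followed by SLC3A2 at 57.8 ± 1.2 and SLC38A2 at 30.3 ± 0.73. The next 4, SLC38A1 at 19.8 ± 1.1, SLC38A10 at 18.8 ± 0.38, SLC6A6 at 18.3 ± 0.74 and SLC1A5 at 18.0 ± 0.75, each lay within 1 SD of a neighbour in the order. SLC7A8 also led with EZH2i, was second to SLC3A2 with CBPi and came seventh with FSK.

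A common sequence feature was looked for in the promoters. RefSeq windows on GRCh38.p14, from 250 bases before to 50 after a start site, were given for 23 of the 31 genes, and SLC1A2, SLC3A1, SLC6A6, SLC6A15, SLC7A2, SLC7A3, SLC7A11 and SLC38A3 had no entry. The letters TGATGNAA, the core of the composite element that ATF4 and C/EBP proteins bind, were found on either strand in 6 of the 23, or 26.1%. The share among all 27305 genes with a window was 4.46%, and these transporters have 1.91 windows each where genes in general have 1.29. By window, 6 of 44 held a match, against 3.62% of all 35116. The cAMP response element TGACGTCA and the steroidogenic factor 1 site CAAGGTCA were in 0 of the 23, where 2.25% and 1.6% of genes hold them. The 6 matches are shown because the genes that carry them include the heavy chain SLC3A2 and the glutamine carriers SLC1A5 and SLC38A1, described below. The match is in capitals, and each is read 5′ to 3′ on the strand of the match.
SLC3A2, chr11:62881719-62881748, minus strand: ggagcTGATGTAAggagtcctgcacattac
SLC1A5, chr19:46784893-46784922, minus strand: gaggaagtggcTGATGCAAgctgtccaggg
SLC1A4, chr2:64989381-64989410, minus strand: ccggctggagaTGATGCAAacgggagccgc
SLC38A1, chr12:46266502-46266531, minus strand: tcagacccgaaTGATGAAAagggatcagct
SLC7A1, chr13:29595663-29595692, minus strand: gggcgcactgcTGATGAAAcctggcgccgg
SLC1A3, chr5:36596357-36596386, plus strand: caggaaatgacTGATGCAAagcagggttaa

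Counted from 0 at the start site of its own window, the match ran from -97 to -90 in SLC1A5, from -7 to 0 in SLC1A4, from -4 to 3 in SLC38A1, from 7 to 14 in SLC7A1, from 37 to 44 in SLC3A2 and from -220 to -213 in SLC1A3. A gene can have several start sites. Only the SLC7A1 window spans the start of the gene position given below. The SLC1A3 window lies outside its gene position, and the other windows lie inside theirs. Which start site these cells use was not tested. SLC3A2, SLC1A5, SLC1A4, SLC38A1 and SLC7A1 rose in each comparison with baseline, and SLC1A3 rose in none. SLC7A5, SLC38A2, SLC38A7, SLC43A1 and SLC43A2 also rose in each and had no match in their windows. A match is a run of letters and says nothing of binding.

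The heavy chain SLC3A2 (chromosome 11, 62856102 to 62888875, plus strand; all gene positions are GRCh38 from GENCODE 29) rose with every treatment. Its level was 296, 296 and 306 CPM in the baseline libraries, 712, 752 and 723 with EZH2i, 1022, 935 and 1017 with CBPi, and 403, 411 and 391 with FSK. The 4 groups did not overlap, and CBPi was highest even in its lowest library, replicate 2. Against baseline the log2 fold change was 1.28 ± 0.04 (SE) with EZH2i (edgeR adjusted p = 1.72e-15) and 1.73 ± 0.04 with CBPi (edgeR adjusted p = 2.3e-17). With FSK it was 0.43 (edgeR adjusted p = 3.17e-08). SLC3A1, the heavy chain of kidney and gut cystine transport, had 1 to 6 counts in each library and was not tested. A protein-coding gene known only by its identifier, ENSG00000285542, overlaps it by 44853 bases on the same strand. That gene had a mean of 21.4 CPM at baseline, and how far SLC3A1 reads were counted there was not tested.

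SLC7A8, the light chain for large and small neutral amino acids (chromosome 14, 23125295 to 23183674, minus strand), moved in opposite directions. Levels were 392, 402 and 386 CPM at baseline, 1236, 1251 and 1202 with EZH2i, 843, 823 and 826 with CBPi, and 130, 137 and 141 with FSK. Every FSK library lay below every baseline library, and every inhibitor library lay above. The log2 fold change against baseline was 1.64 ± 0.04 (SE) with EZH2i (edgeR adjusted p = 1.18e-17) and fell by 1.53 ± 0.04 with FSK (edgeR adjusted p = 3.19e-17). With CBPi it was 1.08 (edgeR adjusted p = 5.53e-15).

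SLC7A5, the other large neutral amino acid exchanger and a main importer of leucine (chromosome 16, 87830023 to 87869488, minus strand), did not follow SLC7A8 into the FSK group. It stood at 52.4, 52.1 and 48.2 CPM at baseline, 137, 134 and 131 with EZH2i, 169, 136 and 165 with CBPi, and 60.0, 59.6 and 64.3 with FSK. CBPi replicate 2 fell within the EZH2i range, and the FSK libraries lay just above baseline. Against baseline it rose by 1.40 ± 0.07 (log2, SE) with EZH2i (edgeR adjusted p = 1.45e-12) and by 1.62 ± 0.07 with CBPi (edgeR adjusted p = 1.48e-13). The FSK difference was 0.27 (edgeR adjusted p = 0.00315). Its partial copies SLC7A5P1 and SLC7A5P2, which could share reads with it, had at most 2.28 CPM in any group mean.

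SLC7A11, the cystine carrier that supplies glutathione synthesis (chromosome 4, 138164097 to 138242349, minus strand), had the largest rise of the light chains with both inhibitors. Levels were 49.1, 41.5 and 42.5 CPM at baseline, 218, 187 and 186 with EZH2i, 314, 322 and 294 with CBPi, and 91.9, 101 and 93.2 with FSK. No group overlapped another. The log2 fold changes against baseline were 2.15 ± 0.07 with EZH2i (edgeR adjusted p = 2.45e-14), 2.81 ± 0.07 with CBPi (edgeR adjusted p = 6.41e-16) and 1.11 ± 0.07 with FSK (SE, edgeR adjusted p = 2.76e-10). The antisense gene SLC7A11-AS1 overlaps it by 14081 bases, and its mean was 1.47 CPM or less in each group. SLC7A11-AS1 fell by 1.81 with FSK (log2, edgeR adjusted p = 0.000446), where SLC7A11 rose, and did not pass with either inhibitor (edgeR adjusted p = 0.239 and 0.0934). The strand setting of the counting is not given in the sources used here. Reads from bases that a gene shares with its antisense partner may therefore be counted for either, which was not tested.

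The other light chains were weaker. SLC7A7, an exchanger of cationic for neutral amino acids (chromosome 14, 22773222 to 22829820, minus strand), lies 295.5 kb from SLC7A8 with 17 protein-coding genes between, and moved the other way with the inhibitors. It had 1.28, 1.18 and 1.08 CPM at baseline, 0.62, 0.63 and 0.36 with EZH2i, 0.24, 0.21 and 0.38 with CBPi, and 0.49, 0.75 and 0.76 with FSK. All treated libraries lay below all baseline libraries, on counts of 5 to 32 per library. With CBPi it fell by 2.03 ± 0.32 (log2, SE, edgeR adjusted p = 1.72e-05), and the differences with EZH2i and FSK were -1.12 (edgeR adjusted p = 0.0012) and -0.82 (edgeR adjusted p = 0.0154). The FSK call was lost with DESeq2 (adjusted p = 0.0591) and without FSK replicate 1 (edgeR adjusted p = 0.0808). SLC7A6, of the same exchange type, stayed between 30.9 and 39.5 CPM in every library and rose only with CBPi, by 0.18, a call lost in some fits that left out a library.

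Per kilobase, the 5 light chains together stood at 85.4 ± 1.8 CPM at baseline, 258 ± 5.5 with EZH2i, 208 ± 4.7 with CBPi and 49.8 ± 1.5 under FSK (SD, n = 3 each). Set against SLC3A2 on the same scale, their ratio was 1.48 ± 0.060 at baseline, 1.84 ± 0.062 with EZH2i, 1.09 ± 0.039 with CBPi and 0.642 ± 0.031 under FSK. None of the 4 groups overlapped in this ratio of mRNA levels. SLC7A8 made up 76.9% of light chain mRNA at baseline, 79.4% with EZH2i, 66.5% with CBPi and 45.6% under FSK. The share of SLC7A11 was 5.39%, 7.90%, 15.4% and 19.9% in the same order, and that of SLC7A5 was 12.5%, 10.9%, 15.7% and 25.8%. FSK was thus the group with the least light chain mRNA for its heavy chain and the most even mix of the 3 main light chains.

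**Figure D2:**
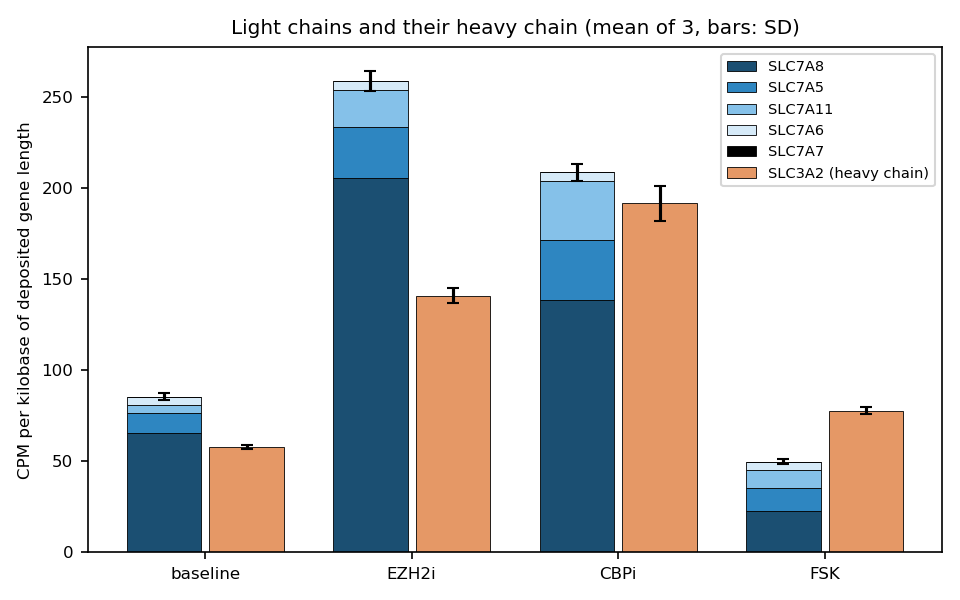
Mean level per kilobase of gene length (y axis, n = 3) of the 5 SLC7 light chains, stacked in blues, beside their heavy chain SLC3A2 in orange, in each group, with SD bars for the stack and for SLC3A2. The stack is taller than SLC3A2 at baseline and with both inhibitors and shorter with FSK (49.8 against 77.6), where the SLC7A8 layer is thinnest.

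In the SLC1 family, the 2 neutral amino acid exchangers rose and the glutamate carriers did not. SLC1A5, which exchanges glutamine for other neutral amino acids (chromosome 19, 46774883 to 46788594, minus strand), stood at 57.7, 62.7 and 59.7 CPM at baseline. It was at 209, 214 and 210 with EZH2i, 221, 187 and 218 with CBPi, and 140, 138 and 142 with FSK. Treated libraries all lay above baseline, and CBPi replicate 2 was low among the inhibitor libraries. Log2 fold changes were 1.81 ± 0.05 with EZH2i (edgeR adjusted p = 5.82e-16), 1.80 ± 0.05 with CBPi (edgeR adjusted p = 6.33e-16) and 1.22 ± 0.06 with FSK (SE, edgeR adjusted p = 1.72e-13).

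SLC1A4, which exchanges alanine, serine and cysteine (chromosome 2, 64988477 to 65023865, plus strand), was ordered differently. It had 52.8, 55.8 and 54.0 CPM at baseline, 72.6, 71.4 and 69.4 with EZH2i, 96.8, 95.9 and 98.4 with CBPi, and 127, 130 and 131 with FSK. The groups did not overlap, and FSK was the highest. The rise with FSK was 1.25 ± 0.04 (log2, SE, edgeR adjusted p = 2.24e-15), and those with CBPi and EZH2i were 0.84 and 0.39 (edgeR adjusted p = 1.7e-12 and 1.61e-07). The ratio of SLC1A5 to SLC1A4 per kilobase was 2.31 ± 0.031 at baseline, 6.18 ± 0.16 with EZH2i, 4.48 ± 0.36 with CBPi and 2.26 ± 0.042 under FSK (SD, n = 3 each). The FSK libraries overlapped the baseline libraries, and the EZH2i and CBPi libraries all lay above both.

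The glutamate carriers were lower or did not pass. SLC1A3 (chromosome 5, 36606355 to 36688334, plus strand) had 27.7, 28.6 and 29.0 CPM at baseline, 27.9, 27.6 and 27.1 with EZH2i, 11.6, 12.9 and 13.1 with CBPi, and 29.2, 27.8 and 31.1 with FSK. CBPi alone stood apart, with a log2 difference of -1.18 (edgeR adjusted p = 8.05e-12), beside -0.05 with EZH2i and 0.04 with FSK (edgeR adjusted p = 0.534 and 0.572). SLC1A2 (chromosome 11, 35251205 to 35420063, minus strand) had 3.65, 4.89 and 3.81 CPM at baseline, 3.09, 3.11 and 2.32 with EZH2i, 1.65, 1.49 and 1.60 with CBPi, and 1.93, 2.86 and 2.56 with FSK. All treated libraries lay below baseline, and it fell by 1.39 ± 0.18 with CBPi (log2, SE, edgeR adjusted p = 1.63e-06). The EZH2i difference of -0.55 (edgeR adjusted p = 0.00556) did not pass without baseline replicate 2 (edgeR adjusted p = 0.0654), and the FSK difference was -0.76 (edgeR adjusted p = 0.000771). SLC1A1, the third glutamate carrier, was at 11.2 to 20.9 CPM in all libraries and fell only with FSK, by 0.45.

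The system A carriers lie side by side on chromosome 12, where SLC38A1, SLC38A2 and SLC38A4 have gaps of 88.2 kb and 391.9 kb and 0 protein-coding genes between. SLC38A1 (46183063 to 46270017, minus strand) was at 210, 195 and 189 CPM at baseline, 444, 416 and 410 with EZH2i, 534, 540 and 525 with CBPi, and 234, 238 and 245 with FSK. The groups did not overlap. It rose by 1.43 ± 0.04 with CBPi (log2, SE, edgeR adjusted p = 7.06e-16), by 1.09 with EZH2i and by 0.27 with FSK (edgeR adjusted p = 4.02e-14 and 3.1e-05). SLC38A2 (46358189 to 46372867, minus strand) was at 196, 203 and 193 CPM at baseline, 362, 347 and 356 with EZH2i, 317, 334 and 310 with CBPi, and 247, 239 and 251 with FSK. EZH2i was here above CBPi, with differences from baseline of 0.85, 0.70 and 0.32 in the order EZH2i, CBPi and FSK (edgeR adjusted p = 5.61e-13, 1.04e-11 and 1.42e-06).

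SLC38A4 (46764761 to 46832408, minus strand), a system A carrier best known from liver and placenta, was near silent except with EZH2i. It had 6, 14 and 11 counts in the baseline libraries (0.27, 0.52 and 0.52 CPM), 234, 238 and 265 with EZH2i (7.23, 7.88 and 8.77 CPM), 4, 14 and 13 with CBPi (0.19, 0.58 and 0.45 CPM), and 2, 2 and 3 with FSK (0.08, 0.08 and 0.13 CPM). The level that the filter on low counts asks for was reached in 3 EZH2i, 2 baseline, 2 CBPi and 0 FSK libraries. The log2 fold change with EZH2i was 4.16 ± 0.21 (SE, edgeR adjusted p = 1.19e-12). With FSK it fell by 2.10 ± 0.52 (log2, SE, edgeR adjusted p = 0.00217), on 7 summed counts. From the summed counts, baseline was 4.46 times FSK, with a 95% Clopper-Pearson interval of 1.93 to 12 that covers counting error only. The CBPi difference was -0.06 (edgeR adjusted p = 0.896). SLC38A4-AS1, an RNA gene on the other strand that overlaps 67648 bases of it, was at 1.17, 1.32, 1.29 and 0.73 CPM in the 4 group means, from baseline to FSK, and did not pass with EZH2i (edgeR adjusted p = 0.622).

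SLC38A3, a system N glutamine carrier of liver and kidney, also rose with EZH2i only, from a mean of 1.06 to 2.08 CPM (log2 fold change 0.98, edgeR adjusted p = 2e-04). This rise did not pass the test against 1.5-fold (edgeR adjusted p = 0.061). SLC38A3 was at 0.87 CPM with CBPi and 1.06 with FSK, and neither passed. Its counts were low, at 19 to 71 per library. SLC38A5, of the same system, had 0 to 5 counts per library and was not tested.

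**Figure D3:**
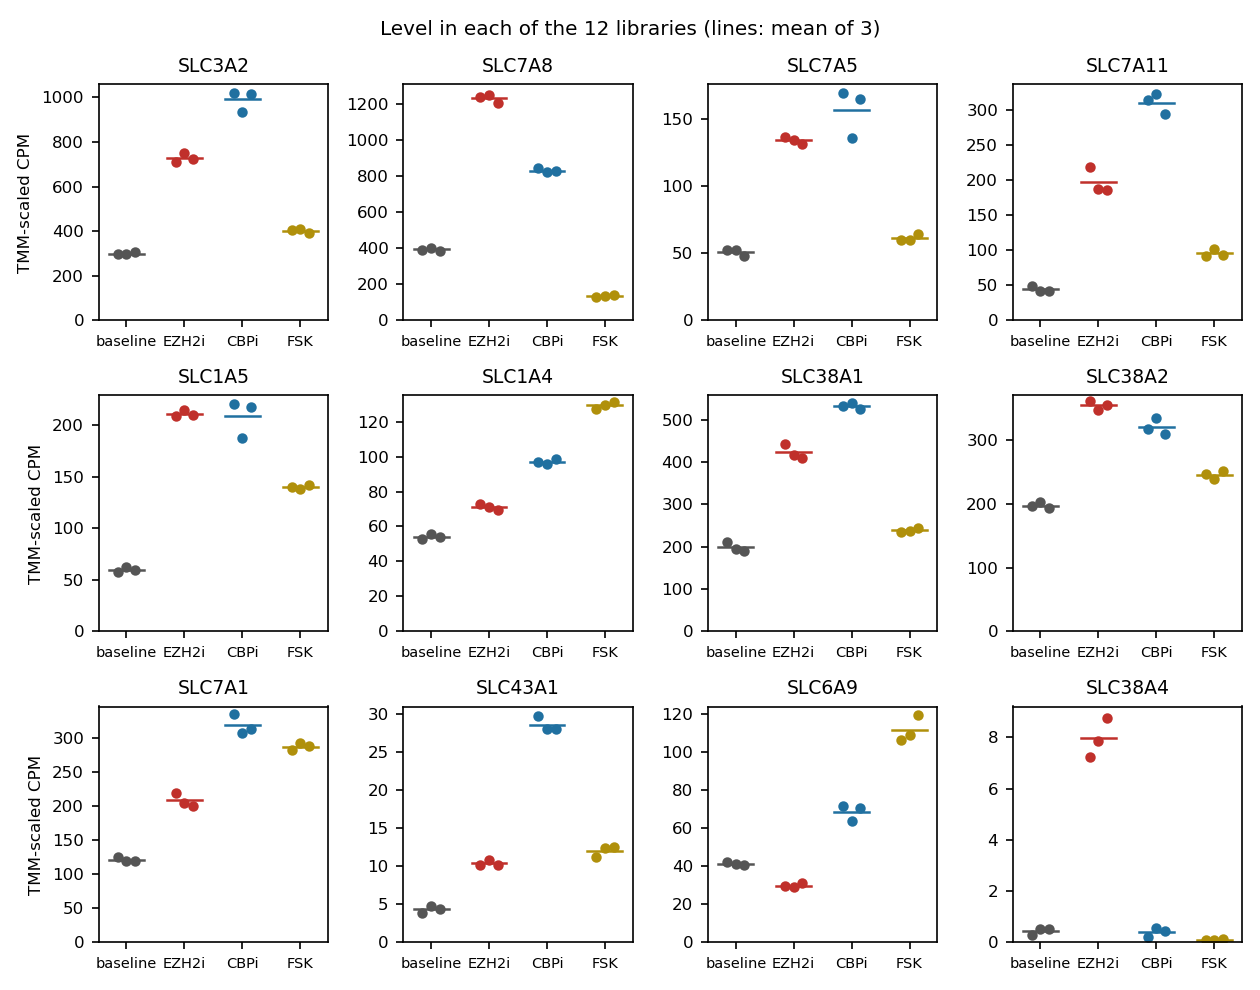
Level of 12 transporters (y axis, scaled CPM from 0) in each of the 12 libraries, 1 point per library and a line at the mean of 3, by group. SLC3A2, SLC7A11 and SLC38A1 step up from baseline to EZH2i to CBPi with FSK between baseline and EZH2i, SLC1A4 and SLC6A9 are highest with FSK, SLC7A8 is lowest with FSK, and SLC38A4 leaves the axis floor only with EZH2i.

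Among the cationic carriers, SLC7A1, the main arginine and lysine importer of most cells (chromosome 13, 29509410 to 29595688, minus strand), was at 125, 119 and 119 CPM at baseline. It was at 219, 204 and 201 with EZH2i, 335, 307 and 313 with CBPi, and 281, 292 and 288 with FSK. The groups did not overlap, and FSK stood nearer to CBPi than to EZH2i. The rise was 1.24 ± 0.05 with FSK (log2, SE, edgeR adjusted p = 6.81e-15), 1.39 with CBPi and 0.78 with EZH2i (edgeR adjusted p = 1.58e-15 and 1.32e-11). SLC7A2, a carrier of the same type, was at 13.8 to 16.5 CPM at baseline and fell with FSK to 10.9 to 12.6, a difference of -0.39 (edgeR adjusted p = 0.00146). With EZH2i it was at 15.1 to 17.9 CPM and did not pass (0.07, edgeR adjusted p = 0.504). The CBPi difference of -0.24 (edgeR adjusted p = 0.0302) was lost without baseline replicate 1 or 2 or CBPi replicate 1 or 2 (edgeR adjusted p = 0.0606 to 0.127). SLC7A3 had 0 to 3 counts per library and was not tested.

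SLC6A9, a sodium and chloride coupled importer of glycine (chromosome 1, 43991500 to 44031467, minus strand), gave EZH2i and the other treatments opposite signs. It had 42.2, 41.1 and 40.7 CPM at baseline, 29.4, 29.0 and 31.02 with EZH2i, 71.8, 63.6 and 70.5 with CBPi, and 106, 109 and 119 with FSK. No groups overlapped, and EZH2i was the only one below baseline. It rose by 1.43 ± 0.06 with FSK (log2, SE, edgeR adjusted p = 2.31e-14) and by 0.73 with CBPi (edgeR adjusted p = 1.22e-09), and the EZH2i difference was -0.47 (edgeR adjusted p = 1.12e-06). An antisense RNA gene known only by its identifier, ENSG00000230615, overlaps it by 1025 bases and was at 26.9, 10.2, 17.5 and 55.7 CPM in the group means from baseline to FSK. CCDC24, on the same strand as that RNA, overlaps SLC6A9 by 5029 bases and was at 11.6, 7.60, 8.51 and 9.25 CPM. How far reads of these neighbours enter the SLC6A9 counts was not tested.

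The other SLC6 members were a taurine carrier and a neutral amino acid carrier known from neurons. SLC6A15 (chromosome 12, 84859488 to 84913615, minus strand) had 0.50, 0.55 and 0.52 CPM at baseline, 1.58, 1.19 and 1.39 with EZH2i, 0.53, 0.83 and 0.73 with CBPi, and 0.45, 0.54 and 0.76 with FSK. Only the EZH2i libraries lay apart, at a log2 fold change of 1.39 ± 0.25 (SE, edgeR adjusted p = 7.38e-05), on 36 to 51 counts each. Taurine carrier SLC6A6 was abundant, at 119 to 176 CPM in all libraries, with differences of 0.18 with EZH2i, -0.26 with CBPi and -0.05 with FSK, the last of which did not pass (edgeR adjusted p = 0.425).

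SLC43A1, a facilitator of large neutral amino acids that needs no exchange (chromosome 11, 57484534 to 57515786, minus strand), went from a low level to a moderate one. It had 3.92, 4.86 and 4.42 CPM at baseline, 10.2, 10.8 and 10.2 with EZH2i, 29.7, 28.0 and 28.0 with CBPi, and 11.2, 12.4 and 12.5 with FSK. CBPi stood far above the others, and FSK just above EZH2i. Log2 fold changes were 1.23 ± 0.09 with EZH2i (edgeR adjusted p = 7.75e-10), 2.69 ± 0.09 with CBPi (edgeR adjusted p = 1.08e-15) and 1.44 ± 0.09 with FSK (SE, edgeR adjusted p = 7.07e-11). Its relative SLC43A2 rose by 0.34, 0.49 and 0.71 in the same order, from a baseline mean of 15.5 CPM.

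The SLC36 carriers and the remaining SLC38 carriers showed small differences. Of SLC36A1, SLC36A4, SLC38A6, SLC38A7, SLC38A9 and SLC38A10, 0 passed the test against 1.5-fold in any comparison with baseline, and by the plain test 2 rose and 1 fell with EZH2i, 2 rose and 2 fell with CBPi, and 2 rose and 0 fell with FSK. Over all genes 29.5% rose and 28.3% fell with EZH2i, 29.8% and 29.0% with CBPi, and 25.5% and 25.1% with FSK, and with so few carriers nothing is read from the counts. SLC38A9, the lysosomal arginine sensor of the mTORC1 pathway, was at 20.4 to 26.2 CPM in all libraries and fell by 0.20 with EZH2i, a call lost without baseline replicate 1 or EZH2i replicate 1 (edgeR adjusted p = 0.0528 and 0.0638). SLC38A7, a lysosomal glutamine exporter, rose by 0.52 with CBPi, from a mean of 47.4 to 68.1 CPM. SLC36A4 fell by 0.48 with CBPi, from 41.5 to 29.7 CPM. SLC38A10 was at 146 to 152 CPM at baseline and at 167, 125 and 160 with CBPi, where replicate 2 alone was below baseline.

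Compared directly, EZH2i and CBPi differed in both directions. Of the 28 tested transporters 12 were higher with EZH2i and 11 with CBPi, beside 21.7% and 22.2% of all genes, with a median difference of -0.02 (all genes -0.01). By more than 1.5-fold, 3 were higher with EZH2i (SLC1A3, SLC38A3 and SLC38A4) and 2 with CBPi (SLC6A9 and SLC43A1), beside 3.55% and 1.33% of all genes. The log2 difference was 4.22 ± 0.21 for SLC38A4, 1.13 ± 0.07 for SLC1A3, -1.20 ± 0.06 for SLC6A9 and -1.46 ± 0.07 for SLC43A1 (SE, edgeR adjusted p from 3.93e-11 to 2.7e-12). The cystine carrier SLC7A11 and its heavy chain SLC3A2 were higher with CBPi (EZH2i minus CBPi, log2, -0.65 and -0.44), while SLC7A8 was higher with EZH2i by 0.57. SLC1A5 differed by 0.02 ± 0.05 (SE, edgeR adjusted p = 0.824).

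FSK differed from both inhibitors in its light chains, though its drug exposure was shorter. Between EZH2i and FSK, 13 transporters were higher with EZH2i and 7 with FSK, beside 30.3% and 31.3% of all genes, and 8 and 2 passed the test against 1.5-fold, beside 10.7% and 7.81%. Between CBPi and FSK, 14 were higher with CBPi and 10 with FSK (29.3% and 29.5% of all genes), and 7 and 2 passed 1.5-fold (8.33% and 6.92%). SLC7A8 was higher by 3.18 ± 0.04 with EZH2i and by 2.61 ± 0.04 with CBPi than with FSK (log2, SE, edgeR adjusted p = 4.35e-22 and 5.14e-21). SLC7A5 was higher with the inhibitors by 1.13 ± 0.07 and 1.35 ± 0.07, and SLC7A11 by 1.05 ± 0.07 and 1.70 ± 0.07. The glycine carrier SLC6A9 was higher with FSK by more than 1.5-fold in both comparisons, with log2 differences of -1.90 for EZH2i minus FSK and -0.70 for CBPi minus FSK. SLC1A4 was higher with FSK too, at -0.86 and -0.41 in the same order. The median log2 differences over the 28 were 0.175 for EZH2i minus FSK and 0.172 for CBPi minus FSK, beside -0.001 and 0 over all genes tested.

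**Figure D4:**
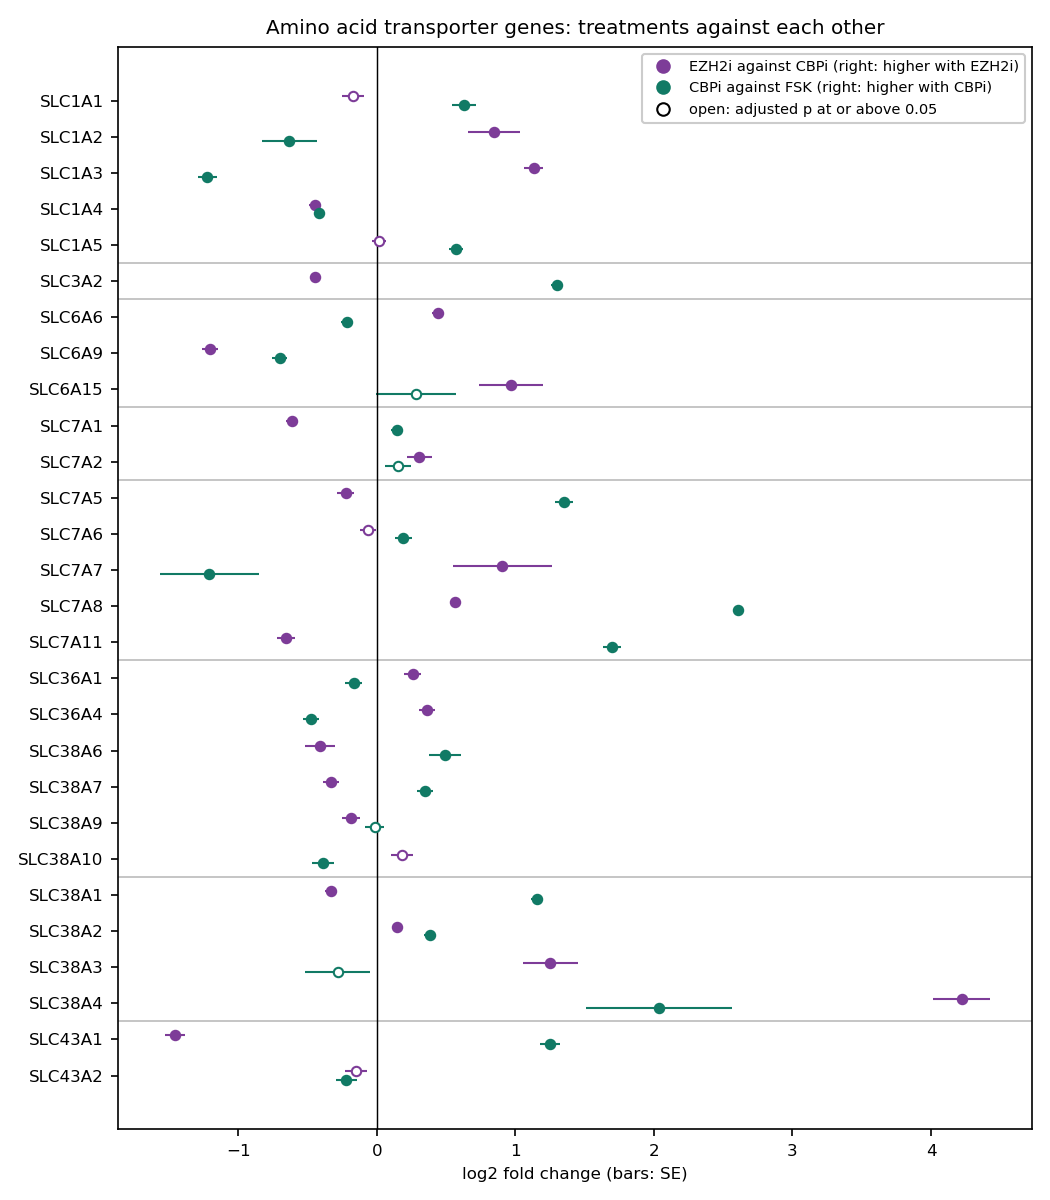
Log2 fold change of each tested transporter (x axis) for EZH2i against CBPi in purple and CBPi against FSK in green, with SE bars and open circles where edgeR adjusted p was at or above 0.05. SLC7A8, SLC7A11, SLC7A5, SLC3A2 and SLC38A1 lie well to the right in green, SLC43A1 lies on opposite sides in the 2 colours, and SLC38A4 is the rightmost purple point at 4.22.

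Genes of the pathways around these carriers are given by lists, and ASNS and SESN2 each stand in 2 of them. The counts of each list stand beside those of all genes tested, of which 29.5% rose and 28.3% fell with EZH2i (median 0.02), 29.8% and 29.0% with CBPi (median 0.015), and 25.5% and 25.1% with FSK (median 0.015). The amino acid response list had 21 tested members. It holds genes of the GCN2 and ATF4 pathway and its targets, and also ATF2 and the gene of another kinase, EIF2AK3. Its counts are therefore not particular to GCN2. With EZH2i 16 rose and 3 fell (median 1.12), with CBPi 16 rose and 2 fell (median 2.14), and with FSK 13 rose and 4 fell (median 0.85). ATF4 itself went from 196 CPM at baseline to 215, 260 and 291 with EZH2i, CBPi and FSK, differences of 0.13, 0.41 and 0.57. Several listed targets rose further: ASNS, asparagine synthetase, from 21.4 to 60.4, 97.8 and 71.8 CPM, CHAC1, which breaks down glutathione, from 7.82 to 38.7, 65.8 and 33.3, DDIT3, a stress transcription factor, from 16.0 to 43.2, 94.6 and 45.4, and SESN2, a leucine sensor, from 31.8 to 69.1, 146 and 71.2. All of these passed in the 3 comparisons. EIF2AK4, the gene of GCN2, was at 127, 128, 131 and 109 CPM and passed only with FSK, where it fell by 0.22. Other members fell or did not pass. VLDLR, a lipoprotein receptor, fell with every treatment, from 32.2 CPM to 20.1, 20.8 and 4.47. The transcription factor ATF5 was at 112 CPM at baseline and fell to 92.8 with EZH2i and 102 with CBPi, and its FSK level of 119 did not pass. DDIT4, an inhibitor of mTORC1 signalling, rose from 17.4 CPM to 35.2 and 76.8 with the inhibitors and did not pass at 18.2 with FSK. NUPR1, a stress-induced nuclear protein, rose from 4.62 CPM to 21.6 and 47.7 with the inhibitors and fell to 3.42 with FSK.

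In the other lists genes were called in both directions. Of 28 tested amino acid enzymes, 14 rose and 12 fell with EZH2i (median 0.105), 15 rose and 11 fell with CBPi (median 0.15), and 12 rose and 7 fell with FSK (median 0.09), beside 29.5% and 28.3%, 29.8% and 29.0%, and 25.5% and 25.1% of all genes. ASS1, the enzyme that uses citrulline to make arginine, fell from 114 CPM at baseline to 18.3 with EZH2i, a log2 difference of -2.64 ± 0.06 (SE, edgeR adjusted p = 8.63e-18). BCAT1, the cytosolic branched-chain aminotransferase, went from 1.67 CPM to 9.65, 14.7 and 23.1 with EZH2i, CBPi and FSK. Of 35 lysosomal sensing genes, 12 rose and 12 fell with EZH2i, 16 and 11 with CBPi, and 12 and 12 with FSK, with medians of -0.018, 0.055 and -0.014, beside the same shares of all genes. SESN3 in this list, a relative of SESN2, went from 25.8 CPM at baseline to 51.4 with EZH2i and 8.98 with FSK.

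Amino acid carriers outside the set were called in both directions. Of 30 listed, 14 were expressed highly enough to be tested, and 5 rose and 3 fell with EZH2i, 5 and 3 with CBPi, and 5 and 4 with FSK, with medians of 0.075, 0.204 and -0.099. The shares of all genes were 29.5% and 28.3%, 29.8% and 29.0%, and 25.5% and 25.1%, so counts this small are near the background. SLC6A17, a vesicular neutral amino acid carrier, went from 8.46 CPM to 22.8 with EZH2i, 19.1 with CBPi and 64.5 with FSK, the last a log2 fold change of 2.92 ± 0.08 (SE, edgeR adjusted p = 3.03e-17). Of 10 tested mitochondrial carriers, 2 rose and 4 fell with EZH2i, 2 and 4 with CBPi, and 1 and 4 with FSK, and SFXN3, a relative of the mitochondrial serine carrier SFXN1, rose by 0.85 with CBPi.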

How the data were processed

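The 12 libraries, 3 per group, hold polyadenylated RNA. Reads were aligned with STAR to hg38 and counted with featureCounts, per the submitters' processing notes, with no versions, strand setting or treatment of multimapping reads given in the sources used here. For 60617 genes the authors deposited expected counts, estimated counts of which 65.6% of non-zero values are whole within 1e-06, and gene lengths in another unit (bases). Counts were rounded, filtered with filterByExpr (20360 genes kept), scaled by TMM and fitted in 1 quasi-likelihood model with edgeR 4.0.16 in R 4.3.3, with p-values adjusted over all genes kept and glmTreat for the fold of 1.5. SE is the log2 fold change divided by the square root of F. CPM are TMM-scaled. The pipeline was tested on simulated data. The members and lists were chosen with earlier results of these data known. Library values are printed for the 16 members that passed 1.5-fold against baseline or led in CPM per kilobase, and full statistics for the 8 largest changes in each comparison at most, plus set genes and up to 4 per list; 1 other listed marker and 1 other gene that overlaps a member are not reported here. Alternatives were DESeq2 1.42.0, limma 3.58.1 (voom), 3 other scalings, 2 other filters, fits of 2 groups, a fold of 2 and each library left out.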

Additional observations from a re-analysis of the deposited data

How the results depend on the processing

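Of 129 transporter calls over the 6 comparisons, 110 passed in all alternatives run and 19 lost the threshold in at least 1, with no change of sign among called values. The lost calls had log2 differences of at most 0.91 in size. SLC38A10, not called with CBPi against baseline (0.02), was -0.062 without CBPi replicate 1 and -0.032 without CBPi replicate 3, and was called at 0.128 without CBPi replicate 2. A fold threshold of 2 in place of 1.5 gave fewer calls by construction: 799 genes for EZH2i, 737 for CBPi and 1072 for FSK against baseline, 338 for EZH2i against CBPi, and 1801 and 1367 for EZH2i and CBPi against FSK. Transporters higher at that threshold numbered 6 with EZH2i and 7 with CBPi against baseline, 1 with EZH2i against CBPi and 2 with EZH2i against FSK, and those lower were 1 with FSK against baseline, 1 with EZH2i against FSK and 1 with CBPi against FSK. Scaling by library size only left 4 transporters lower with EZH2i than with FSK (7 as reported). It left 1 lower by over 1.5-fold with CBPi than with FSK (2 as reported). Of all calls for FSK against baseline, it put 39.7% higher in place of 50.5%, and the all-gene median went from 0.0146 to -0.0543. The TMM factors that this setting leaves out were 0.954 to 0.972 in the FSK libraries and 1.007 to 1.011 at baseline. Why these factors differ was not tested. Leaving out 1 library gave 1 to 2 transporters lower by over 1.5-fold with FSK against baseline (1 without baseline replicate 2 or 3 or FSK replicate 1 or 2), 4 to 7 lower with EZH2i against FSK (4 without EZH2i replicate 1), and 1 to 3 lower by over 1.5-fold with CBPi against FSK (1 without CBPi replicate 2 or FSK replicate 3). No paired analysis was possible because the labels give no replicate numbers. Low counts limit SLC7A7, SLC6A15, SLC38A3 and, outside EZH2i, SLC38A4, and SLC3A1, SLC7A3 and SLC38A5 had too few counts to be tested.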
